A study of Mus musculus with 6 samples.

Results

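The 9 genes described here are C1qa, C1qb, C1qc, Cd5l, Vcam1, Hmox1, Slc40a1, Axl and Mrc1, which are known from the resident macrophages of bone marrow and from the macrophages at the centre of erythroblast islands. They were taken by gene name from the RNA files of sorted mouse LSK cells, and all 9 of them were found among 14455 genes listed in at least 1 library. The 9 genes were chosen with earlier results of these data known, so their being listed is a description and not a test. The question they address is whether RNA of such macrophages is present in the sort and whether it differs with loss of Setd2. LSK cells are marrow cells without lineage markers that carry Sca-1 and c-Kit, and they hold the stem cells and the earliest multipotent progenitors. Setd2 encodes the methyltransferase that trimethylates lysine 36 of histone H3. Total RNA was sequenced from C57BL/6 mice in 4 libraries, namely Setd2 KO and WT cells taken 8 months after pI-pC (old KO and old WT) and Setd2 KO and WT cells taken 4 weeks after pI-pC (young KO and young WT). The labels give the interval after pI-pC, a synthetic double-stranded RNA used to induce conditional deletion, for WT as well as KO samples. The Cre driver, the number of mice behind a library and the ages of the mice are not given in the sources used here. Each group had 1 library, so no difference below has a replicate check, an SD or a p-value, and each describes these libraries alone.

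Bone marrow macrophages take up dying cells and aged red cells, break down their heme and return the iron to developing erythroblasts. In an erythroblast island a central macrophage holds maturing erythroblasts through adhesion molecules and engulfs the nuclei they expel. C1q, the recognition unit of the classical complement pathway, is assembled from A, B and C chains in equal number and is made mainly by tissue macrophages, which sets its genes apart from markers shared with monocytes. Other genes of the group are less restricted: Vcam1 is also made by stromal and endothelial cells, Slc40a1 by erythroid cells and Hmox1 by many cells under stress.

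The C1q genes are neighbours on chromosome 4 (mm10), where C1qb, C1qc and C1qa span 18675 bases from 136880129 to 136898803. The nearest other genes listed in any library lay 44141 bases before the cluster (Ephb2) and 80929 bases after it (Zbtb40). Promoter sequences, from 250 bases before to 50 after the start in RefSeq on GRCm38.p6, were found for 5 of the 9 genes: C1qb, C1qc, Cd5l, Axl and Mrc1. The promoters of C1qb and C1qc are shown because these genes of 1 cluster were listed at different levels, and that of Cd5l because it encodes another secreted product of the same macrophages. Capitals mark GAGGAA or its reverse TTCCTC, the core bound by PU.1, the myeloid factor encoded by Spi1, and TGCTGA or its reverse TCAGCA, the core bound by Maf factors.
C1qb promoter, chr4:136886151-136886450, minus strand: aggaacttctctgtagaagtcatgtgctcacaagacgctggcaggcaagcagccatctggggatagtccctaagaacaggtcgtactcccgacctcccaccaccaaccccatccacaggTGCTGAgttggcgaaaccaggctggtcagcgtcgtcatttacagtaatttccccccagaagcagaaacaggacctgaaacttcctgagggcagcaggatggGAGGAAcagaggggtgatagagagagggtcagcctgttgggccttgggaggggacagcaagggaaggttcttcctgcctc
C1qc promoter, chr4:136892865-136893164, minus strand: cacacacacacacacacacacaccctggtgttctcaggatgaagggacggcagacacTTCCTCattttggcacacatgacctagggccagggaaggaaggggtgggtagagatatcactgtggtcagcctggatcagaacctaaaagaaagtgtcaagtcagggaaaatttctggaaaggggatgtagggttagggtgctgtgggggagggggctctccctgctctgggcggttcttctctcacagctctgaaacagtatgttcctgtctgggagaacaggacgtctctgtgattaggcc
Cd5l promoter, chr3:87357631-87357930, plus strand: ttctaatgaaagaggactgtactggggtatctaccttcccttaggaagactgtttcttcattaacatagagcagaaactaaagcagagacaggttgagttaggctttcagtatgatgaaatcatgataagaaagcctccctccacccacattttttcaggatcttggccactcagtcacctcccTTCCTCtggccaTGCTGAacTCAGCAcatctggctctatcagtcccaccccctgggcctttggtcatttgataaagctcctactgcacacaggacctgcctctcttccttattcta
On either strand, GAGGAA was in all 5 promoters found and in 28.3% of the 32851 mouse promoters of that length. TGCTGA was in 2 of the 5, those of C1qb and Cd5l, and in 19.5% of all. The marked motifs do not overlap in these sequences, and a match is a description of letters, not of binding. Spi1 itself stood at 24.3 scaled FPKM in old KO, 11.1 in old WT, 11.7 in young KO and 14.9 in young WT.

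Levels are given as FPKM, which is corrected for transcript length, scaled so that the typical gene is equal between libraries. Each file lists only genes at an FPKM of 0.5 or more, which is 0.470 to 0.511 after scaling, so a gene that is not listed may be absent or low. The libraries listed 13173 to 13318 genes with a median of 5.33 to 5.53 scaled FPKM. The spacing of low values gave 17.9 to 18.1 counted units per FPKM for a transcript of 1 kb in the old libraries and 9.04 to 9.57 in the young ones. Setd2 stood at 15.5 in old KO, 15.3 in old WT, 12.4 in young KO and 14.1 in young WT, and since RNA outside the deleted part can remain, this does not check the genotype. Of the sorting markers, Kit stood at 41.1 in old KO, 44.5 in old WT, 52.9 in young KO and 61.0 in young WT. Ly6a, which encodes Sca-1, stood at 4.18 in old KO, 8.80 in old WT, 3.17 in young KO and 4.86 in young WT. The old and young pairs also differed in Xist, the transcript that silences an X chromosome in female cells, which stood at 279 in old KO and 291 in old WT and was listed in neither young library.

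All 9 macrophage genes were low in every library. Of these, 7 were listed in all 4 libraries, C1qc was listed in the old libraries alone, and Cd5l was listed in all but old KO. No member reached 5 scaled FPKM anywhere, and none reached the median of the listed genes of its library. The highest value of the group was Hmox1 in old WT, at 3.54, a level with 36.7% of that library's listed genes below it. The lowest listed value was C1qc in old KO, at 0.526. The levels of 6 of the 9 genes were highest in old WT, those of Cd5l and Axl in young WT, and that of C1qb in old KO. Summed over the group, the level was 9.89 in old KO, 17.5 in old WT, 11.9 in young KO and 14.0 in young WT, with genes that are not listed counted as 0. In bulk RNA, fewer cells of a type and less RNA per cell cannot be told apart.

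**Figure D1:**
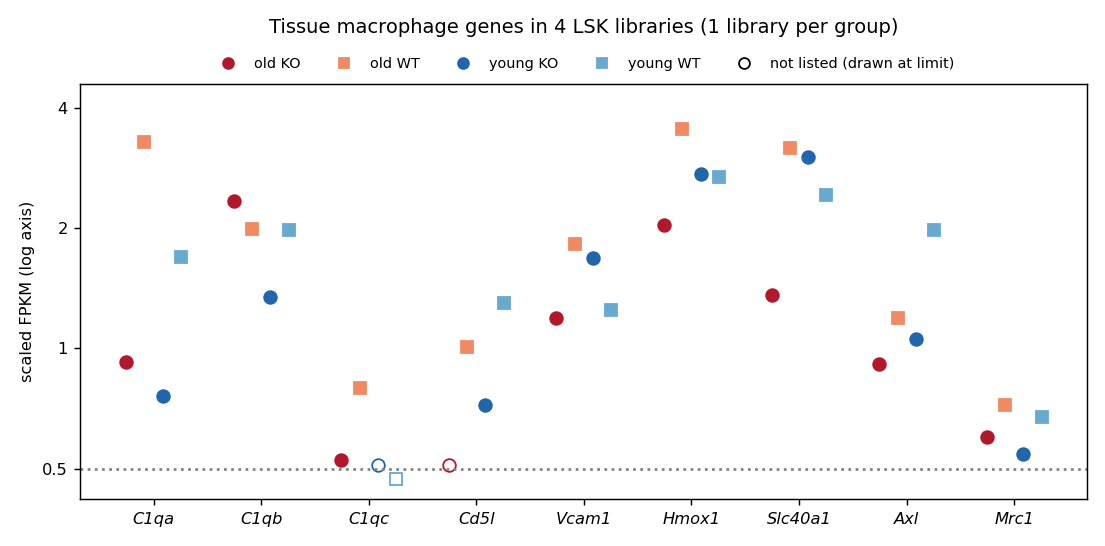
Scaled FPKM (vertical log axis) of each of the 9 macrophage genes in the 4 libraries, with 1 point per library, circles for KO and squares for WT, and open symbols at the listing limit (dotted line) for values not listed. All points lie at or below 3.54, and the old WT square is the highest point for 6 of the 9 genes.

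Among the complement genes, C1qa, which encodes the A chain (ENSMUSG00000036887, chromosome 4, 136895917 to 136898803), stood at 0.924 in old KO, 3.29 in old WT, 0.759 in young KO and 1.70 in young WT. Both KO values lay below both WT values. The old KO level was 3.56-fold below old WT, a difference of -1.16 on the log2(scaled FPKM + 1) scale, and the young KO level was 2.24-fold below young WT, a difference of -0.62 on that scale. A difference of 1 or more on that scale was called, so C1qa was called lower in the old comparison and not in the young one. The scale understates changes at such low levels: with 5 added in place of 1, the old difference was -0.48 and was not called, and with 0.1 added it was -1.73. Counting error alone, taken for a transcript of 1 kb, put the old ratio of KO over WT, 0.281, between 0.152 and 0.494 (95% exact interval). The young ratio, 0.447, lay between 0.154 and 1.14. At that length, and with the counted unit of the young libraries, the young difference is within counting error. Whether a unit is the same thing at both ages is not known. These intervals leave out the spread between mice and sorts.

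C1qb, the B chain gene (ENSMUSG00000036905, chromosome 4, 136880129 to 136886187), stood at 2.34 in old KO, 1.99 in old WT, 1.35 in young KO and 1.98 in young WT. The old KO value is the highest and the young KO value the lowest, and the WT values are nearly equal. The differences were 0.16 on the log2 scale in old and -0.35 in young cells, and counting intervals of both ratios held 1. C1qc, the C chain gene (ENSMUSG00000036896, chromosome 4, 136889804 to 136893065), stood at 0.526 in old KO and 0.796 in old WT and was not listed in either young library. The ratio of old KO over old WT was 0.661 for C1qc and 1.17 for C1qb, whose counting interval, 0.730 to 1.90, does not overlap that of C1qa. The ratio of C1qa to C1qb was 0.395 in old KO, 1.65 in old WT, 0.563 in young KO and 0.856 in young WT, so the A chain level exceeded the B chain level in old WT alone. The summed C1q level was 3.79 in old KO, 6.07 in old WT, 2.11 in young KO and 3.68 in young WT. Cd5l (ENSMUSG00000015854, chromosome 3, 87357881 to 87371073), which encodes a secreted scavenger protein of macrophages that binds lipids, was not listed in old KO and stood at 1.01 in old WT, 0.720 in young KO and 1.302 in young WT. Its WT values lay above its KO values at both ages. It was at least 1.97-fold lower in old KO than in old WT, taking the listing limit for KO, and 1.81-fold lower in young KO than in young WT.

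Heme oxygenase 1, encoded by Hmox1, opens the heme ring and frees its iron. Hmox1 (ENSMUSG00000005413, chromosome 8, 75093591 to 75100596) stood at 2.04 in old KO, 3.54 in old WT, 2.73 in young KO and 2.69 in young WT. The KO level was below WT in old cells, by -0.58 on the log2 scale, and differed by 0.01 in young cells. Slc40a1 (ENSMUSG00000025993, chromosome 1, 45908068 to 45926523) encodes ferroportin, the exporter through which macrophages release iron. It stood at 1.36 in old KO, 3.17 in old WT, 3.02 in young KO and 2.42 in young WT. Old KO was the low library, 2.33-fold below old WT, and the other values lay close to one another. Its differences were -0.82 in old and 0.23 in young cells, the widest gap between the ages within the group. For a transcript of 1 kb, counting intervals for the ratio of old KO over old WT ran from 0.254 to 0.703 for Slc40a1 and from 0.372 to 0.883 for Hmox1.

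The adhesion gene Vcam1 (ENSMUSG00000027962, chromosome 3, 116109949 to 116129688), whose product binds the integrin of Itga4 and Itgb1 on erythroblasts and progenitors, stood at 1.19 in old KO, 1.82 in old WT, 1.68 in young KO and 1.25 in young WT. The KO level was lower in old and higher in young cells, by -0.37 and 0.25 on the log2 scale. The integrin partners were far more abundant in the same sorts: Itga4 stood at 39.9 in old KO, 36.8 in old WT, 46.4 in young KO and 39.6 in young WT. Itgb1 ranged from 43.9 to 45.4.

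The uptake receptor gene Axl (ENSMUSG00000002602, chromosome 7, 25757273 to 25788705), a receptor tyrosine kinase through which dying cells are taken up, stood at 0.913 in old KO, 1.19 in old WT, 1.06 in young KO and 1.98 in young WT. Young WT was the high library, and the difference was -0.20 in old and -0.53 in young cells. Mrc1 (ENSMUSG00000026712, chromosome 2, 14229392 to 14332057), the mannose receptor, was the gene with the smallest range, at 0.600 in old KO, 0.720 in old WT, 0.545 in young KO and 0.673 in young WT. All Mrc1 values lie close to the listing limit, and none of them reached the level of 1 needed to enter a comparison. Gas6, the ligand of Axl, was not listed in old KO and stood at 3.01 in old WT, 1.13 in young KO and 2.38 in young WT, so that it was at least 5.90-fold lower in old KO than in old WT. The other receptors of the family, Mertk and Tyro3, were listed in no library.

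Counts over the group take the genes that reached 1 scaled FPKM in either library compared, called measured here. In old cells 1 of 7 measured members, C1qa, was called lower in KO, none was called higher, and the median difference was -0.41. Among 12478 genes measured, 4.3% were called in either direction and 2.66% as lower, and the median was 0.00. With so few members, 1 call is no more than a value to be read beside that share. In young cells none of 7 measured members was called, where 1.72% of 12409 genes were (1.02% higher and 0.701% lower), and the median was -0.35, against 0.00 over all genes. With the members under the level of 1 included, 8 of 9 lay below 0 in old cells and 5 of 8 in young cells. Of the 7 genes measured at both ages, C1qa, Cd5l and Axl were lower in KO at both. C1qb, Vcam1, Hmox1 and Slc40a1 had opposite signs, although Hmox1 had the same sign at both ages without scaling. For a transcript of 1 kb, counting intervals excluded 1 for 3 of 8 members listed in both old libraries, C1qa, Hmox1 and Slc40a1. In young cells they did so for 0 of 8, so all young signs lie within counting error at that length.

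**Figure D2:**
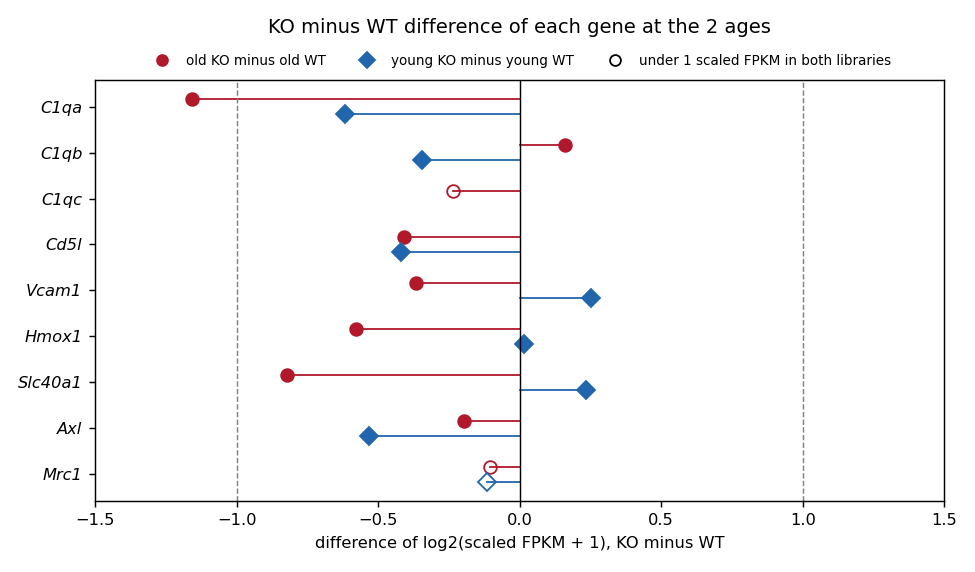
Difference of log2(scaled FPKM + 1), KO minus WT (horizontal axis), for each macrophage gene in old (circles) and young (diamonds) cells, with open symbols for genes under 1 scaled FPKM in both libraries and dashed lines at the limit for a call. C1qa in old cells, at -1.16, is the point beyond a dashed line; old Cd5l, not listed in KO, is drawn with KO at the listing limit.

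Between the ages, old WT was higher than young WT for 5 of 7 measured members, of which C1qb, at 0.00, turned negative under other scalings. The median was 0.29, and none was called, where 5.55% of 12569 genes were (4.22% higher and 1.33% lower). C1qa differed most, by 0.67 on the log2 scale, with a counting interval of 1.12 to 3.53 for its ratio of 1.94. That interval sets counted units of old libraries against those of young ones, which may not be the same thing. Old KO was lower than young KO for 4 of 5 measured members, with a median of -0.29, and again none was called, where 7.19% of 12534 genes were (4.95% higher and 2.24% lower). Slc40a1 led these, at -0.77, and C1qb was the exception, at 0.51. The age comparisons share libraries with the genotype comparisons, and age cannot be told apart from the difference of the pairs in Xist.

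Further macrophage genes ranged from not listed to abundant. Of 43 other genes of tissue and island macrophages, 21 were listed in no library, 9 in some and 13 in all 4. Of those listed, 9 reached 5 scaled FPKM in some library and 13 stayed below it, as the 9 members did. The list summed to 149.6 in old KO, 101 in old WT, 90.3 in young KO and 97.5 in young WT, so that its sum was highest in old KO, unlike that of the members. Listed in none were Siglec1, the sialoadhesin of island macrophages, Spic, the transcription factor of red pulp and marrow macrophages that recycle iron, Mertk, Timd4, Vsig4, Marco, Folr2 and Lyve1. The hemoglobin scavenger receptor Cd163 was listed in young WT alone, at 0.593, and Adgre1, which encodes F4/80, stood at 1.52 in old KO, 0.999 in young KO and 1.06 in young WT and was not listed in old WT. Fcna, which encodes a ficolin, was not listed in old KO and stood at 1.31 in old WT, 1.08 in young KO and 1.76 in young WT. The abundant genes of this list are shared with monocytes, progenitors or other cells. Sepp1, the gene of the selenium carrier selenoprotein P, stood at 21.2 in old KO, 17.3 in old WT, 16.4 in young KO and 15.9 in young WT. Maea stood at 23.7 in old KO, 20.6 in old WT, 22.1 in young KO and 21.8 in young WT. Pla2g15 ranged from 9.97 in old WT to 15.2 in old KO, and Ctsl from 3.43 in young KO to 9.57 in old WT. Csf1r, whose product receives the growth factor CSF1, stood at 29.1 in old KO, 8.31 in old WT, 4.92 in young KO and 8.91 in young WT. Cd68, a lysosomal protein, stood at 14.1 in old KO, 4.88 in old WT, 6.00 in young KO and 4.37 in young WT. Apoe, the lipid carrier, stood at 7.82 in old KO, 1.56 in old WT, 2.96 in young KO and 5.16 in young WT. These 3 genes were called higher in old KO among 18 measured, none was called lower, and the list median was 0.37, with 1.63% of all genes called higher. In young KO none of 15 measured was called, and the median was -0.12. Markers of tissue macrophages were thus listed in part, and the 9 genes are named here for where they are best known.

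**Figure D3:**
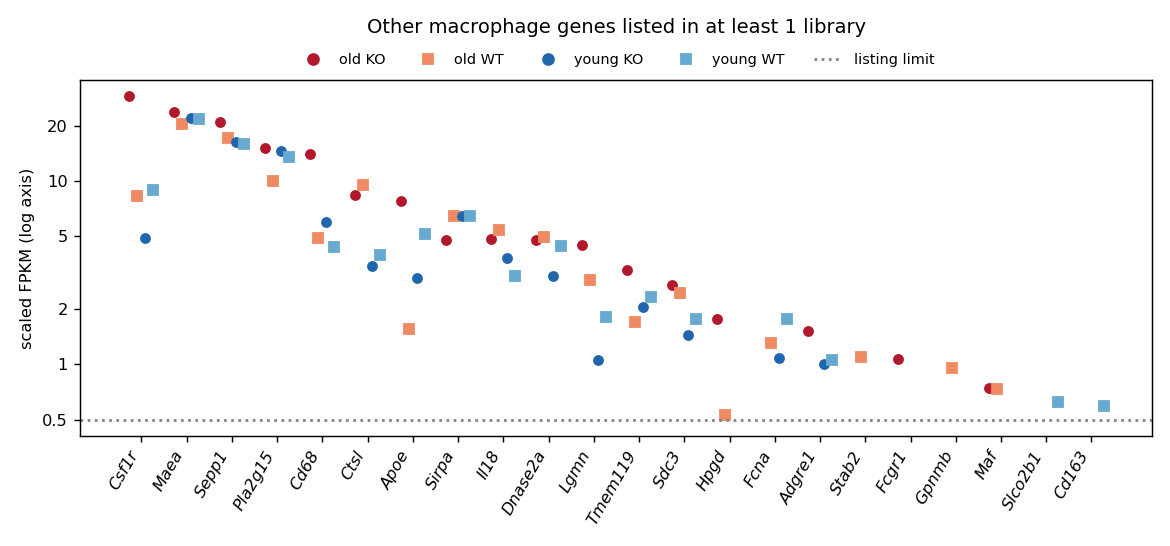
Scaled FPKM (vertical log axis) of the 22 other macrophage genes that were listed in at least 1 library, ordered by their highest level, with 1 point per library. Csf1r, Cd68 and Apoe have their highest points in old KO, and Cd163 has a point in young WT alone.

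Monocyte genes lay on the other side of 0 from most of the macrophage group in old cells. The monocyte list was chosen with earlier results of these data known, so its counts are a description and not a test. It shares Csf1r with the list of other macrophage genes. All 25 genes of a monocyte list were higher in old KO than in old WT, 16 of them were called, where 1.63% of all genes were called higher, and the median was 1.36, against 0.00 over all genes, while 6 of 7 measured members of the macrophage group were lower. In young cells both groups lay on the same side of 0. There 19 of 24 measured monocyte genes were lower in KO and 5 higher, with a median of -0.21, against -0.35 for the macrophage group. Of the monocyte genes 1 was called lower in young KO, Ifitm6, where 0.701% of all genes were. The summed monocyte level was 1127 in old KO, 453 in old WT, 373 in young KO and 461 in young WT. The summed level of 13 neutrophil genes was 383 in old KO, 45.1 in old WT, 9.01 in young KO and 5.77 in young WT. Old WT, the library with the highest sum of the 9 members, was also the one with the most plasma cell RNA: 10 plasma cell genes summed to 211 in old KO, 2212 in old WT, 61.9 in young KO and 45.6 in young WT, and immunoglobulin genes held 26.7% of its summed FPKM, against 4.63% in old KO. The late red cell genes, of the erythroblasts that islands hold, summed to 65.7 in old KO, 35.6 in old WT, 427 in young KO and 171 in young WT. Late red cell genes were thus highest in young KO and lowest in old WT, where the sum of the 9 members was highest. Old KO, where the sum of the 9 members was lowest, at 9.89, also had fewer late red cell transcripts than either young library. The 15 dendritic cell genes summed to 212 in old KO, 184 in old WT, 102 in young KO and 124 in young WT. For the 26 stromal and endothelial genes, another source of Vcam1, the sums were 46.5 in old KO, 54.3 in old WT, 72.6 in young KO and 69.5 in young WT. The endothelial gene Cdh5 was listed in old WT alone, at 0.615, close to the listing limit of 0.509. In old KO against old WT, 9 of 12 measured genes of that list lay below 0 and 3 above, with a median of -0.44. None of them was called, where 4.3% of all genes were. In young KO against young WT, 5 of 13 lay below 0 and 8 above, with a median of 0.15. There 1 was called higher, Col1a1, where 1.02% of all genes were. In old WT against young WT, 6 of 13 measured genes of that list lay above 0 and 7 below. Of these, Cxcl12 (-1.17) and Pdgfrb (-1.09) were called lower in old WT, where 1.33% of all genes were. The part of these other cells in the macrophage gene values was not tested.

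**Figure D4:**
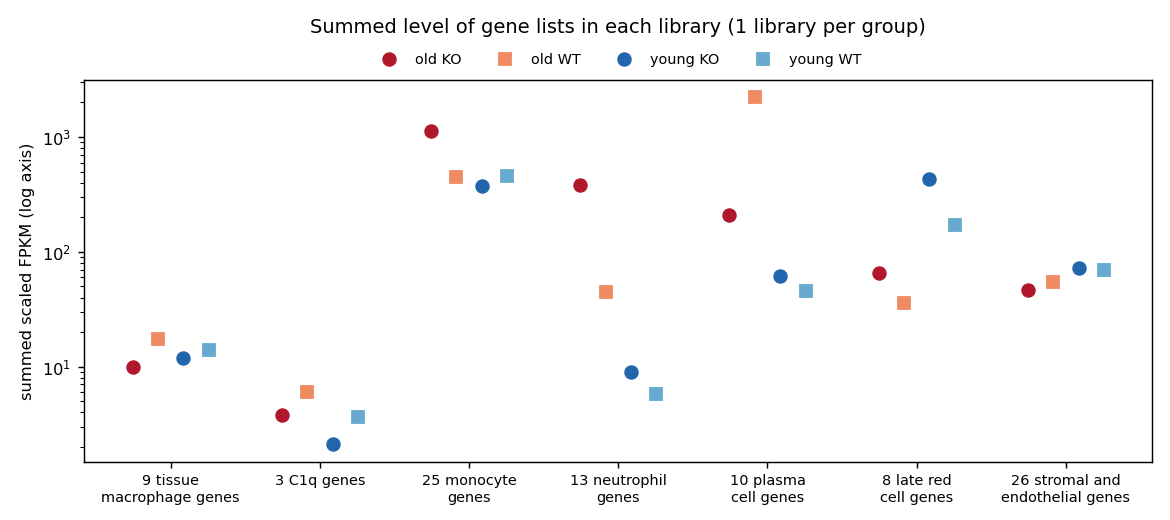
Summed scaled FPKM (vertical log axis) of the macrophage genes and of marker lists of other cells, with 1 point per library. The sum of the 9 macrophage genes spans 9.89 to 17.5, whereas the monocyte and neutrophil sums are highest in old KO and the plasma cell sum in old WT.

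A list of 29 genes of heme and iron handling shares Cd163 and Spic with that of other macrophage genes. Of its genes, 23 were measured in each genotype comparison. In young KO 2 were called higher and none lower, where 1.02% of all genes were called higher and 0.701% lower. They were Blvrb, biliverdin reductase B, at 22.5 in young KO and 8.40 in young WT, and Ncoa4, which delivers ferritin for breakdown, at 6.29 in young KO and 2.24 in young WT. In old KO the 1 gene called, as higher, was Spi1, which encodes the myeloid factor PU.1 and not an enzyme or carrier of heme or iron. None was called lower, and the list median was 0.16. Over all genes 1.63% were called higher and 2.66% lower in old KO, and the counts of the lists that follow are to be read beside these shares. The ferritin heavy chain gene Fth1 stood at 186 in old KO, 141 in old WT, 134 in young KO and 118 in young WT. Of 22 genes of the complement pathway and its receptors, 12 were measured in old cells, and C3, its central component, was called higher, at 14.3 in old KO and 6.14 in old WT. In young cells none of 13 was called. C1s1 and C1s2, the protease partners of C1q, and C2 were listed in no library, and C1ra stood at 2.96 in old KO, 1.64 in old WT, 2.31 in young KO and 1.88 in young WT. Of 13 genes of the mannose receptor family and other lectins, 5 were measured in old cells and 4 in young cells. Clec7a, the beta-glucan receptor of myeloid cells, was called higher in old KO, at 9.37, against 2.04 in old WT, and none was called in young cells. Of 20 genes of dead cell uptake, 15 were measured in old cells, where Gas6 was called lower, and 14 in young cells, where none was called. Of 10 integrin and adhesion genes, 6 were measured in each and none was called.

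The genes whose profile over the 4 libraries was most like that of summed C1q were Dynlt1b, Skil, Mrps28, Pxylp1 and Gpr65. Likeness was the Euclidean distance between centred log2(scaled FPKM + 1) values, which ran from 0.028 for Dynlt1b to 0.16 for Gpr65 among 10005 genes. C1qa alone, the member listed in all 4 libraries whose values spanned 1 or more on that scale, was nearest to Rsrp1, Zc3h12d and Cdkn2c, at distances of 0.14 to 0.19. None of these is in the macrophage lists, and with 4 libraries many genes can lie this close.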

How the data were processed

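RNA of sorted LSK cells was measured in 4 total RNA libraries, 1 per group; groups come from the sample titles, and the 2 bisulfite samples were not analysed here. Per the file headers, the authors deposited 1 FPKM for each gene beside its identifier, symbol and locus. Builds mm10 and GRCm38 and the tools HISAT2 2.0.4, StringTie 1.3.0, CASAVA, FastQC, Trimmomatic and Bismark are named by the submitters' processing notes, without their roles. The use of strand in counting is not given there, so overlapping genes may share reads. Only values of 0.5 FPKM or more are listed, and unlisted genes were set to 0.5 before scaling, so folds against them are lower bounds.

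Libraries were divided by median-of-ratios factors over 10935 genes at 1 FPKM or more in all 4 (0.979 for old KO, 0.982 for old WT, 0.981 for young KO, 1.06 for young WT). Differences are of log2(scaled FPKM + 1), called at 1 or more in size, among genes at 1 or more in either library. With 1 library per group, no test was run. Symbols with more than 1 row were summed, and 18 symbols turned into dates were restored by identifier. Counted units come from the spacing of FPKM times length at loci under 1500 bases, of which 61.9% to 71.5% of values lay within 0.02 steps of a whole number. The steps, in FPKM times kb, were 0.0554 in old KO, 0.0560 in old WT, 0.111 in young KO and 0.104 in young WT, and whether a unit is the same thing at both ages is not known; intervals take a 1 kb transcript and cover counting error only. The steps were tested on simulated data with Python 3.11.15, numpy 2.4.6, pandas 2.3.3 and scipy 1.17.1.

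The members, lists and rules were chosen with earlier results of these data known. In the list of other macrophage genes, 1 gene is not reported here and enters no count. Text names all members; in the lists, up to 4 genes with the largest difference per comparison, and nearest profiles. Other list genes, the genes not listed and the sort, factor and ligand genes were named after their values were seen. Alternatives tried were other scalings, pseudocounts, filters, unlisted genes at 0 and fewer genes.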

Additional observations from a re-analysis of the deposited data

Results flagged for a closer look

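The difference between KO and WT had opposite signs at the 2 ages for 4 members, which flagged them; with 1 library per group this difference between ages was not tested. The old difference minus the young one, on the log2(scaled FPKM + 1) scale, was -1.06 for Slc40a1, -0.62 for Vcam1, -0.59 for Hmox1 and 0.51 for C1qb. For Hmox1 the young difference was 0.01, and it turned negative without scaling, at -0.07. For a transcript of 1 kb, the counting interval of the young ratio held 1 for each of the 4 members.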

How the results depend on the processing

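No paired analysis was possible because each group has 1 library. The count of called members kept its value under no scaling, upper-quartile scaling, no filter and the removal of antigen receptor, predicted, mitochondrial and small RNA genes. With a pseudocount of 0.1 it was 2 in old KO against old WT (C1qa and Slc40a1), 1 in young KO against young WT (C1qa) and 1 in old KO against young KO (Slc40a1). With a pseudocount of 5 no member was called, a count of 0 in old KO against old WT, where C1qa differed by -0.48. With unlisted genes at 0 it was 2 in old KO against old WT, C1qa and Cd5l. A filter at 5 scaled FPKM left no member. Of 180 member differences under the alternatives 176 kept their sign. The 4 that did not were Hmox1 in young cells, unscaled, and C1qb in old WT against young WT unscaled, under upper-quartile scaling and without those gene classes, at -0.07, -0.05 and -0.00. Calls over all genes moved too: in young KO 126 were higher and 87 lower, against 361 and 273 at a pseudocount of 0.1, 32 and 12 at 5, and 228 and 178 with unlisted genes at 0. In old KO 204 were higher and 332 lower, against 433 and 639 at 0.1, and 54 and 207 at 5, 332 higher with unlisted genes at 0, 123 higher at a filter of 5, and 124 lower without those gene classes. In young KO a filter of 5 gave 81 and 44, and leaving out those classes 64 and 54. In old WT against young WT 531 were higher and 167 lower, against 855 and 453 at 0.1 and 308 and 48 at 5, with 298 lower with unlisted genes at 0, 103 lower at a filter of 5, and 244 and 83 without those classes. In old KO against young KO 620 were higher and 281 lower, against 983 and 680 at 0.1 and 270 and 52 at 5, with 431 lower with unlisted genes at 0, 184 lower at a filter of 5, and 394 and 164 without those classes. Without scaling the median of all genes in young cells was -0.10. Depth limits all members: at 1 kb, C1qa in young KO rests on 6.73 counted units. The length of 1 kb was used for every member. At the same FPKM a longer transcript rests on more units, so its interval would be narrower than the one given.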
